A study of Mus musculus with 6 samples.

Results

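The 7 genes described here belong to angiopoietin-Tie signalling, to the junctions between endothelial cells, or to neighbouring parts of vessel biology, and were chosen by their gene symbols. They are Angpt1, Angpt2, Tek, Pecam1, Cdh5, Ang and Efnb1, each with 1 probe among the 223 probes of the array. Transcripts were measured in the soleus, a lower-leg muscle for posture with many slow fibres, of C57Bl/6 mice kept with the hindlimbs suspended so that these bore no weight. All 6 arrays were of suspended animals and are numbered as replicates 1 to 6 in the labels, whose titles add the tags wt and HS7 without explaining the second. Total RNA from muscle cryosections was used, 3 microgram per array. Unsuspended muscle was not analysed here, so the values describe unloaded soleus and no effect of unloading. The labels do not say that the arrays came from separate animals, so p-values measure only the spread between these arrays, which may be technical.

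Angiopoietins are secreted ligands of the receptor tyrosine kinase Tie2, encoded by Tek, on endothelial cells. Angpt1, released mainly by the mural cells around vessels, activates Tie2 and keeps vessels quiescent, whereas Angpt2, released by endothelial cells themselves, can oppose it and loosens vessels for sprouting or regression. Pecam1 and Cdh5 encode adhesion proteins of the endothelial junction, Efnb1 a membrane-bound ephrin ligand of Eph receptors, and Ang the secreted ribonuclease angiogenin. Angiogenin is a different protein from the angiopoietins, in spite of its similar symbol.

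The deposited intensities are linear and background-subtracted, so a value at or below 0 was treated as not detected. An array summed to between 15.3 and 37.5 over all probes. Replicate 1 had the highest sum, and the other arrays lay between 15.3 and 18.5. Levels below are log2 values relative to the median, on the same array, of the 171 probes above 0 on all 6 arrays. A unit is thus a factor of 2 and 0 is the array median. Probes differ in length and labelling, so a higher level of a probe is not read as more transcript. In whole muscle, fewer endothelial cells and less RNA per cell cannot be told apart.

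Among the 7 genes, 6 were above 0 on all arrays (85.7%), against 76.7% of all 223 probes. Angpt1 was the exception, with a value above 0 on 5 of 6 arrays. Of a fixed list of endothelial markers, 6 of the 7 genes on the array (Pecam1, Cdh5, Tek, Kdr, Flt1 and Cd34) were above 0 on all arrays. Nos3, the endothelial nitric oxide synthase, was above 0 on 4 of 6 arrays and reached at most 0.0011.

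**Figure D1:**
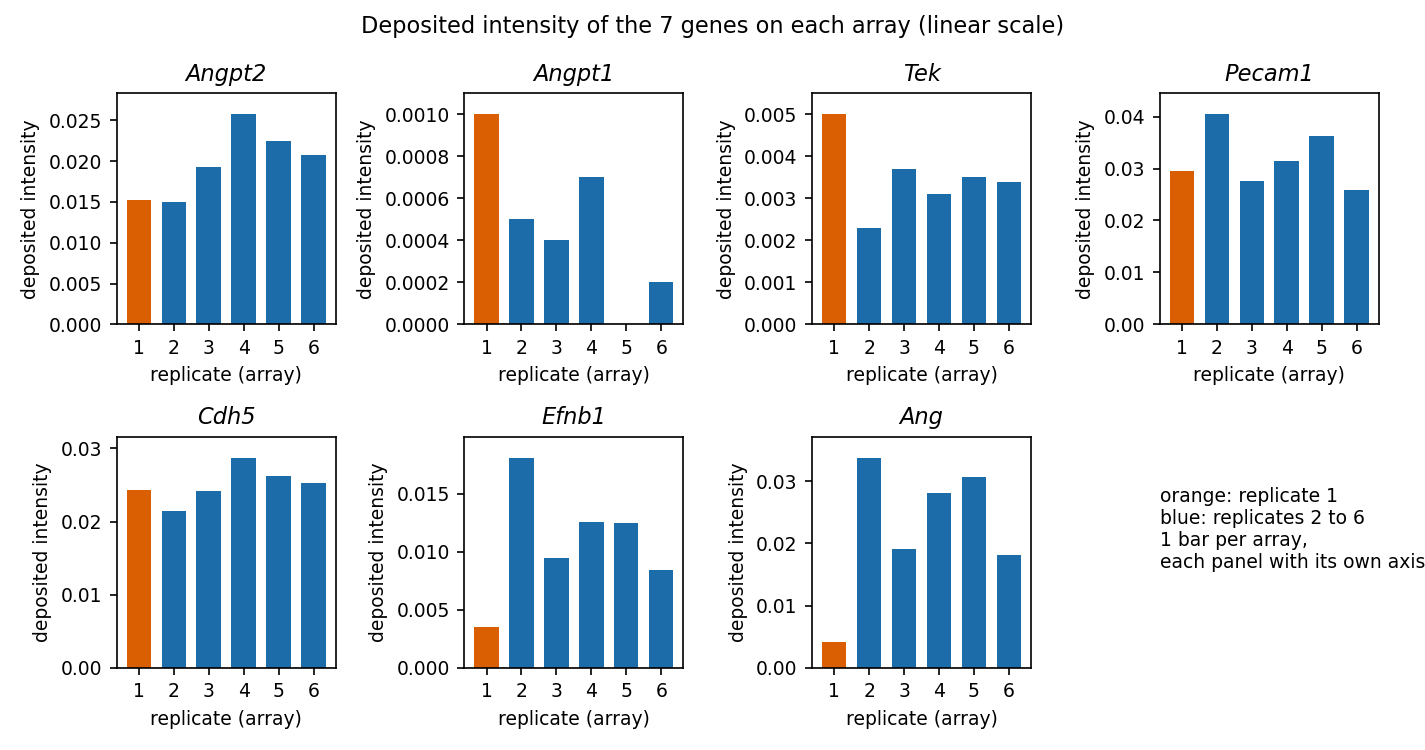
Deposited intensity (vertical axis, linear, no unit given) of each gene on each of the 6 arrays (horizontal axis), 1 bar per array and each panel with its own axis. Angpt1 lies between 0 and 0.0010, while Ang and Efnb1 have their lowest bar on replicate 1, at 0.0042 and 0.0035.

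Angpt2 was detected on every array, and Angpt1 lay at the limit of what the arrays resolved. The Angpt2 intensity was 0.0152, 0.0150, 0.0193, 0.0257, 0.0225 and 0.0207 on replicates 1 to 6. That of Angpt1 was 0.0010, 0.0005, 0.0004, 0.0007, 0.0000 and 0.0002. The intensities are given to 4 decimals, so Angpt1 stood at most 10 steps of 0.0001 above 0, and on replicate 5 it was listed at 0. The most negative value of an array, which shows how far background subtraction alone can move a value, had a size of 0.0005 to 0.0020. Angpt1 exceeded it on replicate 4 only, whereas Angpt2 exceeded it on all 6 arrays.

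The balance between these ligands was followed as log2 Angpt2 minus log2 Angpt1 within an array, a difference that no factor applied to a whole array alters. The difference compares unlike probes and is no ratio of transcripts. On replicate 4, the array where Angpt1 exceeded the size of the most negative value, it was 5.20, and rounding of the deposited values allowed 5.10 to 5.31. Background is a wider limit than rounding, since Angpt1 was 0.0007 there and the most negative value had a size of 0.0005. On the other arrays Angpt1 did not exceed the size of the most negative value. With Angpt1 set to that size, the difference was 2.93 on replicate 1, 3.53 on replicate 2, 4.79 on replicate 3, 4.49 on replicate 5 and 4.37 on replicate 6. These are approximate lower limits only, since background subtraction may also have lowered Angpt1. Taken as deposited, the differences on replicates 1, 2, 3 and 6 were 3.93, 4.91, 5.59 and 6.69, and replicate 5 had none. How far the balance varied between arrays is therefore not resolved.

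**Figure D2:**
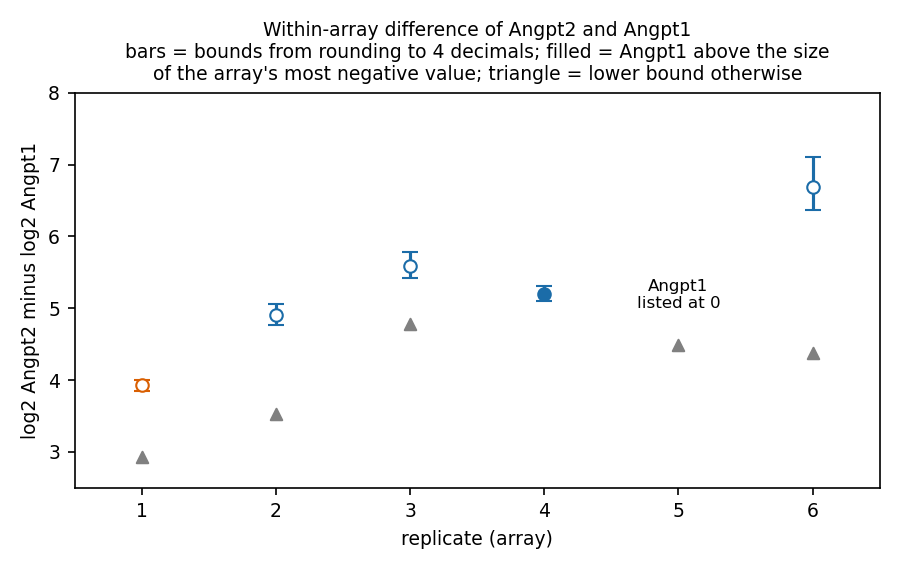
Within-array difference of log2 Angpt2 and log2 Angpt1 (vertical axis, log2 units) on each array (horizontal axis), with bars for the bounds that rounding to 4 decimals allows. The filled point (replicate 4, 5.20) has Angpt1 farther from 0 than the lowest value of its array. On the other arrays the triangles, 2.93 to 4.79, have Angpt1 set to the size of the most negative value. They are approximate lower bounds, and open points are the values as deposited.

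Angpt2 varied about as much as a typical probe. Its level was 0.40 on replicate 1 and 1.00, 1.20, 1.39, 1.46 and 1.67 on replicates 2 to 6, with a mean of 1.19 ± 0.45 (SD, n = 6). Replicate 1 was the lowest on this scale, though in the deposited values it lay among the others. The SD was 0.26 without it (n = 5). A smaller SD than that of Angpt2 was found for 46.8% of the 171 probes, and for 31.6% without replicate 1.

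Tek, the receptor, was dim, but on every array it exceeded the size of the most negative value. Its intensity was 0.0050, 0.0023, 0.0037, 0.0031, 0.0035 and 0.0034 on replicates 1 to 6. The level was -1.32 ± 0.30 (SD, n = 6), and replicate 1, at -1.20, lay inside the range of the others, from -1.71 to -0.93. Tek was thus the only gene of the 6 for which replicate 1 was not the lowest array after median centring. Angpt4, a further Tie2 ligand, was above 0 on 4 of 6 arrays and reached 0.0018 at most.

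The junction genes had SDs below the median SD of all probes (0.48), a difference that was not tested. Pecam1 had intensities of 0.0295, 0.0404, 0.0275, 0.0315, 0.0362 and 0.0259 on replicates 1 to 6. Its level was 1.89 ± 0.38 (SD, n = 6), lowest on replicate 1 at 1.36 and highest on replicate 2 at 2.43. A smaller SD than that of Pecam1 was found for 36.8% of all probes with 6 arrays and for 44.4% without replicate 1, where its SD was 0.31. Cdh5, the VE-cadherin of adherens junctions, had intensities of 0.0243, 0.0215, 0.0242, 0.0287, 0.0263 and 0.0253, a range of 1.33-fold from lowest to highest. Its level was 1.55 ± 0.29 (SD, n = 6). The level on replicate 1 was 1.08, and the other arrays lay between 1.52 and 1.96 with an SD of 0.19 (n = 5). A smaller SD than that of Cdh5 was found for 22.8% of all probes with 6 arrays and for 16.4% without replicate 1. Without any centring the SD of Cdh5 was 0.14 and that of Pecam1 0.24. With equal totals they were 0.50 and 0.54.

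Efnb1 and Ang were the variable genes of the set, and replicate 1 set most of their spread. Efnb1 had intensities of 0.0035 on replicate 1 and 0.0181, 0.0095, 0.0126, 0.0125 and 0.0084 on replicates 2 to 6. Its level was 0.18 ± 1.00 (SD, n = 6), with -1.72 on replicate 1 and 0.18 to 1.27 elsewhere. Ang had 0.0042 on replicate 1 and 0.0337, 0.0191, 0.0281, 0.0306 and 0.0181 on replicates 2 to 6. Its level was 1.13 ± 1.31 (SD, n = 6), with -1.45 on replicate 1 and 1.19 to 2.17 elsewhere. For neither gene did replicate 1 overlap the other arrays. Without replicate 1 the SDs were 0.43 for Efnb1 and 0.39 for Ang (n = 5). With 6 arrays, 97.7% of probes had a smaller SD than Ang and 87.1% a smaller one than Efnb1, and without replicate 1 the shares were 57.9% and 64.9%.

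**Figure D3:**
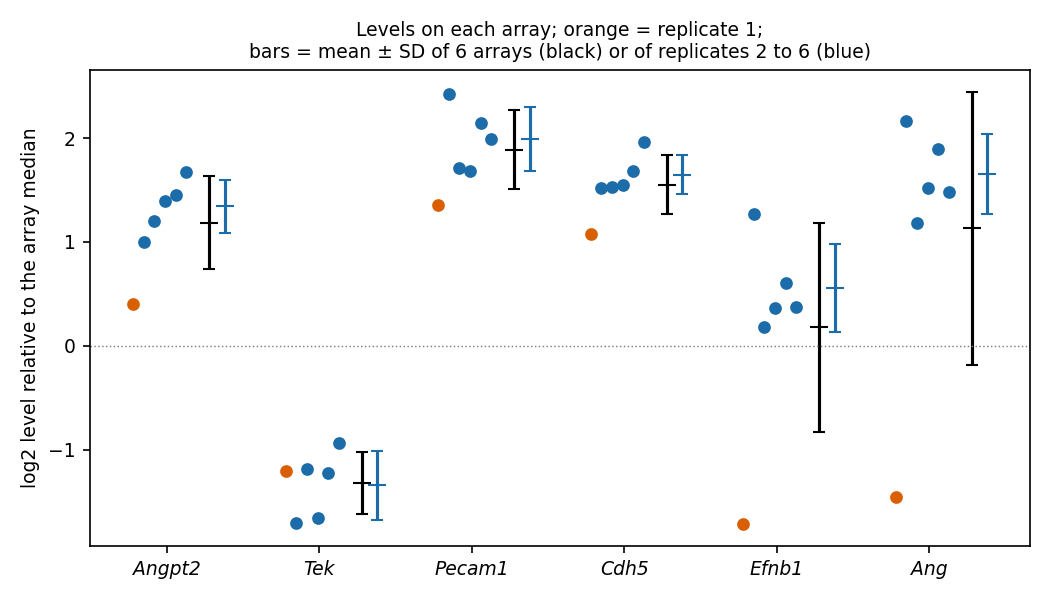
Log2 level relative to the array median (vertical axis) of the 6 genes above 0 on all arrays (horizontal axis), 1 point per array, with mean ± SD of 6 arrays in black and of replicates 2 to 6 in blue. Replicate 1, in orange, is the lowest point for every gene but Tek, and lies at -1.72 for Efnb1 and -1.45 for Ang.

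Replicate 1 was below all other arrays for 5 of the 6 genes, against 28.1% of the 171 probes, both after median centring. In the deposited values, without centring, it was so for Ang and Efnb1 only, 2 of the 6 genes, against 13.5% of the probes. After centring, replicate 1 minus the average of replicates 2 to 6 was -3.10 for Ang, -2.27 for Efnb1, -0.94 for Angpt2, -0.63 for Pecam1, -0.57 for Cdh5 and 0.14 for Tek. The median over the 6 genes was -0.79, and over all 171 probes 0.13. In folds after median centring, Ang was 8.59 and Efnb1 4.84 times lower on replicate 1, and Angpt2 1.92 times. On replicate 1 Ang (0.0042) and Efnb1 (0.0035) stood not far above 0.0020, the size of the most negative value there, so their folds are uncertain. With a pseudocount of 0.0020 the differences were smaller, at -2.47 for Ang, -1.67 for Efnb1 and -0.72 for Angpt2. The median over all probes moved with the scaling, from 0.65 without centring to -0.45 with equal totals. Relative to that median, the differences without centring, with median centring or with equal totals were -3.23 for Ang, -2.40 for Efnb1, -1.07 for Angpt2, -0.76 for Pecam1, -0.69 for Cdh5 and 0.02 for Tek. With quantile normalization they were -3.08, -2.41, -0.95, -0.54, -0.61 and 0.16, and after removal of a lowess curve on level -3.05, -2.27, -0.89, -0.59, -0.52 and -0.10. Tek therefore changed sign with the scaling, and the other 5 genes did not.

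Other markers also differed on replicate 1. The muscle fibre markers on the array (Myh7, Mb and Des) had a median difference of 1.06, and their summed intensity was 4.14 on replicate 1, against 1.41 to 1.79 elsewhere. Divided by the array median, that sum was 360 on replicate 1 and 183 to 219 elsewhere. Of 4 blood and immune markers on the array, Csf2rb and Csf2rb2 were above 0 throughout, with a median difference of -2.73, while Il1b and Il6 were not. On replicate 1 Csf2rb did not exceed 0.0020, the size of the most negative value there, so the size of that median is not resolved. Csf2rb2, at 0.0047 there, differed by -2.82. The fat marker Fabp4 differed by 0.88, and Lipe was not above 0 on all arrays. Of the fibroblast markers, the measured probes of Fn1 and Pdgfra had a median of 0.61, and the mural marker Pdgfrb differed by -0.27. The 6 endothelial markers had a median of -0.34, 5 of them below 0, and a summed intensity of 0.0904 on replicate 1 (with Nos3) against 0.0848 to 0.1016 on the others. Divided by the array median, the sum of the 6 was 7.88 on replicate 1 and 10.3 to 13.0 elsewhere. No nerve or Schwann marker of the list was on the array. The part of these shifts in the values of Ang and Efnb1 was not tested.

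The probes of Ang and Efnb1 carry identifiers that begin with the same number, 3. Of the 4 other measured probes so numbered, Ang2 differed by -1.20 on replicate 1, Pole2 by -0.03 and Ucp3 by 0.36, against a median of 0.13 over all probes. The fourth, Efnb2, stood at 0.0019 there and between 0.0047 and 0.0101 on replicates 2 to 6. No source used here says whether identifiers follow positions on the array, and their part in the result was not tested. Ang2 is, like Ang, a ribonuclease of the angiogenin family and is not Angpt2. The family has close copies in the mouse, so the Ang probe may also have bound their transcripts, and its value is uncertain in that respect.

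Levels of the genes were set against each other over the 6 arrays, to ask which vary together. Pearson's r was tested with all 720 pairings of the arrays (exact permutation, two-sided) for each of the 14535 pairs of measured probes. Of the 15 pairs among the 6 genes, 4 had an exact p under 0.05 before adjustment (26.7%), against 11.7% of all pairs. After Benjamini-Hochberg adjustment over all pairs, 0 of the 15 and 0 of 14535 (0%) passed, and the lowest adjusted exact p was 0.33. The mean r was 0.47 over the 15 pairs and 0.01 over all pairs, and without replicate 1 it was 0.14 and 0.01. This depended on the scaling: without centring the mean r was 0.07 over the 15 pairs and 0.24 over all pairs, and with equal totals 0.76 and 0.15.

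After median centring, Angpt2 and Cdh5 stood in the same order across the arrays. In the deposited values their orders differed, and only in replicates 1 and 3. Their levels were correlated with r = 0.95 (exact p = 0.0014, the smallest the pairings can give, adjusted 0.33) and a Spearman rho of 1 (exact p = 0.0028, adjusted 0.45). Without replicates 1 and 6, the arrays farthest from the median of Angpt2, r was 0.75 (4 arrays). Without replicate 1 alone it was 0.85 (n = 5, exact p = 0.058). The within-array difference of Angpt2 and Cdh5, which no factor applied to a whole array alters, had an SD of 0.19 and ran from -0.68 on replicate 1 to -0.16 on replicate 4. Among all pairs of probes, 1.48% had a smaller SD. With quantile normalization r was 0.85 and missed the threshold (exact p = 0.14), and with the other scalings, the filter and the pseudocount it was between 0.90 and 0.99.

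Ang and Efnb1 were the pair with the highest r. It was 0.99 (exact p = 0.0028, adjusted 0.33), with a Spearman rho of 0.94 (exact p = 0.017, adjusted 0.50). Without replicates 1 and 2, the farthest from the median of Ang, r was 0.997 over 4 arrays, and without replicate 1 alone it was 0.94 (n = 5, exact p = 0.017). The pair kept an exact p under 0.05 under every scaling and filter tried and without each array in turn. Their within-array difference was 0.26 on replicate 1 and ran from 0.90 to 1.29 elsewhere, so Ang was lower on replicate 1 by more than Efnb1 was.

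**Figure D4:**
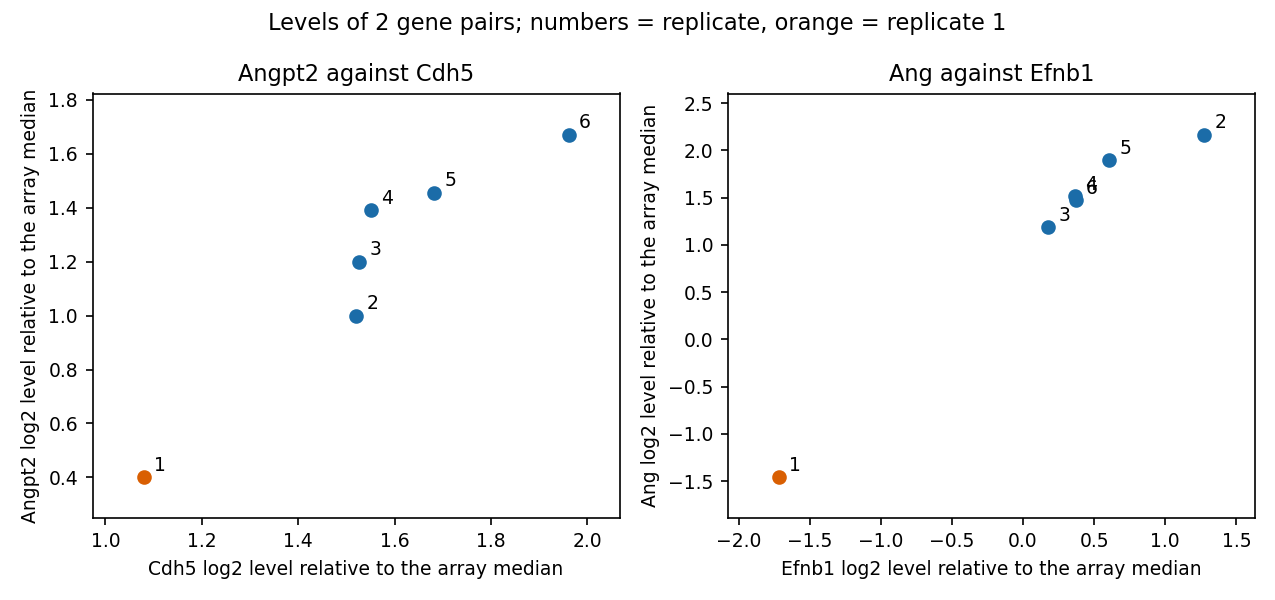
Log2 levels relative to the array median of Angpt2 against Cdh5 (left) and of Ang against Efnb1 (right), 1 point per array with its replicate number. The points of both pairs run from lower left to upper right (r = 0.95 and 0.99), and replicate 1, in orange, lies far below the others for Ang and Efnb1.

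The promoters of Ang and Efnb1 are shown because this pair had the highest r, and that of Tek as the receptor of the set. Those of the other 4 genes were not analysed here. Each is the RefSeq window on GRCm38.p6 from 250 bases before to 50 bases after the gene's start, plus strand, 5′ to 3′. Ang lies at chr14:51090827-51091126, Efnb1 at chrX:99135811-99136110 and Tek at chr4:94739039-94739338. Capitals mark GGAA or its reverse complement TTCC, the core that ETS factors bind, a family with endothelial members.
Ang: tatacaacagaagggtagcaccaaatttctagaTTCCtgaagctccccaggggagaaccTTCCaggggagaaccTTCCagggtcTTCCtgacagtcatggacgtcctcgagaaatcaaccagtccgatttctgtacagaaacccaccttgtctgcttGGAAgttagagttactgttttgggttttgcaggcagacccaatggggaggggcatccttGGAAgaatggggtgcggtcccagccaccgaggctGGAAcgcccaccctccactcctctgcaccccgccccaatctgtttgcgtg
Efnb1: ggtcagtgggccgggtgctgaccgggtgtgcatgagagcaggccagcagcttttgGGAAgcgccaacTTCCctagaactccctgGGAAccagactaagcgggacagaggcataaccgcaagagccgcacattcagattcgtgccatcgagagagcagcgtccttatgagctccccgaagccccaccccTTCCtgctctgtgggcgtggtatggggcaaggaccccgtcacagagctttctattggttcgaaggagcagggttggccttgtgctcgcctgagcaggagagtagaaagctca
Tek: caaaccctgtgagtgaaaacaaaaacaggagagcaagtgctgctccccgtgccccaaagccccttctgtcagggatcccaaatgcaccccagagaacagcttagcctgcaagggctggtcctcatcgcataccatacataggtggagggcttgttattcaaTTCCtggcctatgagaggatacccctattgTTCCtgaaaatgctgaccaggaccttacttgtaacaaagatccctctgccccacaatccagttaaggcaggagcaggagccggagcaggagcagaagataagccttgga
GGAA was found 7 times in the Ang window, 4 times in that of Efnb1 and 2 times in that of Tek, counting both strands. It occurs in 96.0% of the 32851 promoter windows of this length, so nearly all windows hold it. ACGTG, a form of the core of hypoxia response elements, and TATAAA were found 0 times in the 3 windows on either strand. Of all windows, 19.6% and 13.6% had a match. The other form of that core, GCGTG, was not counted, and the Ang and Efnb1 windows printed above hold it. These are descriptions of letters and not of binding.

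Pecam1 had an exact p under 0.05 with Efnb1 and with Ang, and not with Cdh5. Its r was 0.88 with Efnb1 (exact p = 0.0097, adjusted 0.35) and 0.83 with Ang (exact p = 0.013, adjusted 0.35), with Spearman's rho at 0.94 (exact p = 0.017, adjusted 0.50) and 0.83 (exact p = 0.058, adjusted 0.59). Without replicates 1 and 2 the values of r were 0.82 and 0.77 over 4 arrays. Replicate 2 was the highest array for all 3 genes. With Cdh5, Pecam1 had r = 0.58 (exact p = 0.21, adjusted 0.57) and rho = 0.31 (exact p = 0.56, adjusted 0.90). That r was 0.63 without replicates 1 and 2 and 0.06 without replicate 1 (exact p = 0.98, n = 5). The difference between these correlations was not tested. With equal totals r of Pecam1 with Cdh5 was 0.82 (exact p = 0.13). The p of Pecam1 with Ang missed the threshold with the lowess curve (exact p = 0.051) and without replicate 1 (n = 5, exact p = 0.067), and also without replicate 5 or 6. Without centring, r of Pecam1 was 0.49 with Ang, 0.61 with Efnb1 and -0.33 with Cdh5, and none of these passed (exact p = 0.36, 0.21 and 0.54).

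Tek had no exact p under 0.05 with any of the other genes after median centring. Its r was 0.29 with Cdh5, 0.18 with Angpt2, -0.28 with Pecam1, -0.32 with Ang and -0.39 with Efnb1 (exact p between 0.50 and 0.76, adjusted 0.79 to 0.91). Spearman's rho was 0.37 with Cdh5 and Angpt2, -0.31 with Pecam1, -0.71 with Ang and -0.49 with Efnb1 (exact p between 0.14 and 0.56, adjusted 0.68 to 0.90). Without replicates 2 and 4, the farthest from the median of Tek, r with these genes was 0.68, 0.39, 0.29, 0.27 and 0.28 over 4 arrays. Without centring, r was -0.85 with Ang and -0.92 with Efnb1 (exact p = 0.028 and 0.024), and with equal totals it was 0.39 and 0.30. The sign of the relation of Tek to these genes thus depended on the scaling.

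The 4 pairs of Angpt2 or Cdh5 with Ang or Efnb1 had a positive r with replicate 1 and a negative one without it. Their r was 0.78 for Angpt2 with Ang, 0.68 for Angpt2 with Efnb1, 0.76 for Cdh5 with Ang and 0.69 for Cdh5 with Efnb1 (exact p = 0.13, 0.17, 0.14 and 0.14, adjusted 0.49 to 0.54). Spearman's rho was 0.26, 0.37, 0.26 and 0.37 (exact p between 0.50 and 0.66, adjusted 0.88 to 0.93). Without replicate 1 the same r became -0.37, -0.59, -0.15 and -0.26 (n = 5). Without replicates 1 and 6 it was -0.28, -0.61, 0.25 and -0.09 over 4 arrays. For the last pair, Angpt2 with Pecam1, r was 0.46 (exact p = 0.37, adjusted 0.70), rho was 0.31 (exact p = 0.56, adjusted 0.90), and r was -0.34 without replicate 1 and -0.49 without replicates 1 and 6.

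On replicates 2 to 6 the genes fell into sets of 3, a grouping seen in the values and given without a test. Angpt2, Tek and Cdh5 had r between 0.69 and 0.85 with each other. Pecam1, Efnb1 and Ang had r between 0.91 and 0.94. The 9 pairs across the sets had r between -0.59 and 0.06. With 5 arrays, 2 of the 15 pairs had an exact p under 0.05, Ang with Efnb1 and Pecam1 with Efnb1, against 5.47% of all pairs.

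**Figure D5:**
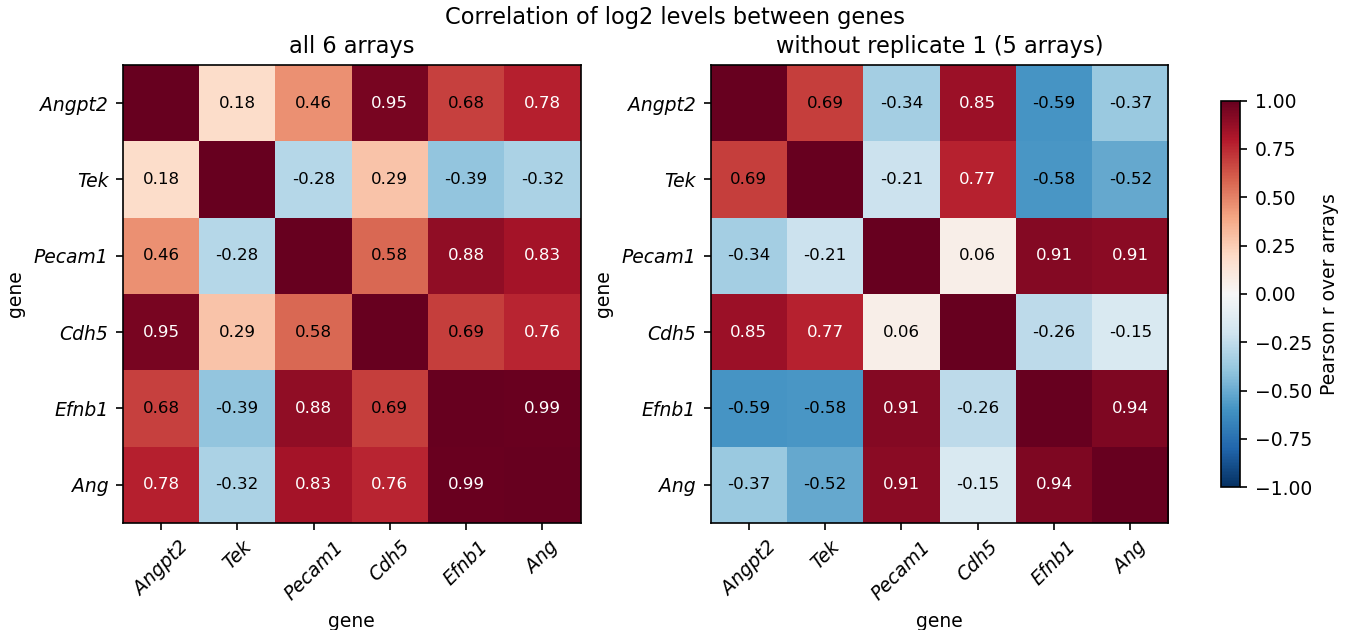
Pearson correlation of log2 levels (colour and printed value) between the 6 genes, over 6 arrays on the left and without replicate 1 on the right. Ang and Efnb1 stay at 0.99 and 0.94 and Angpt2 and Cdh5 at 0.95 and 0.85, while Angpt2 and Ang go from 0.78 to -0.37.

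The probes most like each gene were taken as the 3 named ones with the highest r among 154 named probes outside the set, as a likeness over 6 arrays. For Angpt2 these were Igfbp6 (r = 0.97), which binds insulin-like growth factors, the gut hormone gene Gip (0.92) and the cytokine receptor gene Csf2rb2 (0.92). For Cdh5 they were the matrix protein gene Tnc (0.96), Ang2 (0.93) and the angiotensin receptor gene Agtr2 (0.91). For Tek they were Dgat1 (0.85), an enzyme of triglyceride synthesis, a probe of fibronectin, Fn1 (0.83), and the mitochondrial carrier gene Ucp3 (0.77). Pecam1 was most like Flt4 (0.96), a receptor of lymphatic and other endothelium, the cyclin gene Ccna1 (0.93) and the integrin gene Itga8 (0.93). On replicate 1 Agtr2 stood at 0.0001 and Flt4 at 0.0019, neither above 0.0020, the size of the most negative value there. Without replicate 1, r of Angpt2 with Igfbp6, Gip and Csf2rb2 was 0.95, 0.92 and 0.62. That of Cdh5 with Tnc, Ang2 and Agtr2 was 0.89, 0.77 and 0.90.

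Ang was most like the nitric oxide synthase gene Nos2 (0.99), Efnb2 (0.99), the ephrin of arterial endothelium, and the VEGF receptor gene Flt1 (0.97). Efnb1 was most like Efnb2 (0.98), Flt4 (0.97) and the cell cycle kinase gene Cdk4 (0.97). For all 5 of these genes replicate 1 was the lowest array, against 28.1% of the 171 probes. They were chosen by r with Ang or Efnb1 over the same 6 arrays, so this is no separate observation. On replicate 1 Flt1 differed by -2.60. The others stood at 0.0001 (Nos2), 0.0019 (Efnb2 and Flt4) and 0.0020 (Cdk4), none of them above 0.0020, the size of the most negative value, so the sizes of their differences are not resolved, and the r values with 6 arrays rest partly on them. Without replicate 1, r of Ang with Nos2, Efnb2 and Flt1 was 0.92, 0.92 and 0.52 (n = 5). That of Efnb1 with Efnb2, Flt4 and Cdk4 was 0.84, 0.97 and 0.80 (n = 5).

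Of 52 further genes of vessel signalling on a fixed list, 20 were on the array, and 16 were above 0 on all 6 arrays (Angpt4, Pgf and Nos3 on some, Ephb3 on none). Their median SD was 0.41, as in the 6 genes (0.41), against 0.48 over all probes. On replicate 1 the 16 had a median difference of -0.09, 9 below 0 and 7 above. Replicate 1 was the lowest array for Flt1, Flt4, Vegfd and Efnb2, that is for 4 of 16, against 28.1% of all probes. In the other direction, Thbs1, an inhibitor of vessel growth, differed by 1.24, the mural cell recruitment factor gene Pdgfb by 1.18, the ligand gene Vegfb by 1.07 and the integrin gene Itgb1 by 0.87. The VEGF receptor Kdr, at -0.15 ± 0.17, and the endothelial and progenitor marker Cd34, at 0.82 ± 0.21 (SD, n = 6 each), differed by -0.12 and -0.07. Of the other endothelial receptors, Flt1 differed by -2.60, and Flt4 stood at 0.0019 on replicate 1, not above the 0.0020 that the most negative value of this array reached in size. These differences follow median centring, and the signs of the small ones depend on the scaling, since the median over all probes was 0.65 without centring and -0.45 with equal totals.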

How the data were processed

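The authors deposited 1 intensity per probe and array, linear and background-subtracted with 4 decimals, as read from the values themselves. No source used here gives scanner, scaling or build. Precision is limited by having 6 arrays. Genes came from the GEO platform annotation (205 of 223 probes have 1 symbol and 18 are unnamed here), and all 7 members matched the RefSeq gene table by gene number. No batch is given in the labels.

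Values above 0 on all 6 arrays (171 probes) were put on the log2 scale without pseudocount and centred on the array median. All pairs of probes were tested by exact permutation of Pearson's and Spearman's correlation, two-sided, with Benjamini-Hochberg adjustment over all pairs and a threshold of 0.05. The pair test was tested on simulated normal values with the same SD for every probe and no array apart. That simulation does not cover an array like replicate 1. Named genes are the 7 members, the 3 probes most like each measured member, and a pathway list, and others (Ang2 and Pole2 by identifier, and marker genes) were added. Members and lists were chosen with earlier results of these data known. Alternatives were quantile normalization, equal totals, no centring, a lowess curve (fraction 0.5), a filter above each array's most negative value, a pseudocount of 0.0020, and leaving out arrays. Python 3.11.15, numpy 2.4.6, scipy 1.17.1, pandas 2.3.3 and statsmodels 0.14.6 were used.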

Additional observations from a re-analysis of the deposited data

Results flagged for a closer look

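Genes appear here when the gap between the highest or lowest of the 6 arrays and its neighbour, divided by the range, was larger than the critical ratio of Dixon's test for 6 values. It was so for 27 of all 171 measured probes (15.8%), where chance flags about 1 group in 20. For each gene named here the array was replicate 1. Several were named for following Ang, Efnb1, Angpt2 or Cdh5 across the arrays, so their shared array is no separate observation. On replicate 1 the values of Nos2 and Agtr2 (0.0001 each) and of Efnb2 (0.0019) were below 0.0020, the size of the most negative value there. Replicate 1 was the lowest for Ang (ratio 0.729), Efnb1 (0.634), Efnb2 (0.651), Flt1 (0.824), Nos2 (0.856), Agtr2 (0.748) and Csf2rb2 (0.693). It was the highest for Vegfb (0.807) and Itgb1 (0.693). Angpt2, Tek, Pecam1 and Cdh5 had ratios of 0.471, 0.322, 0.304 and 0.499, below that ratio.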

How the results depend on the processing

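The count of 6 genes above 0 on all arrays stayed 6 with the stricter filter and was between 6 and 7 without each array in turn. The count of pairs with an exact p under 0.05 was 4, and with the other scalings, filters and Spearman's test 3 or 4, of which Ang with Efnb1 was always 1. Of all pairs, between 10.0% (quantile normalization) and 16.6% (no centring) had such a Pearson p. Without centring the 4 included Tek with Ang and Tek with Efnb1, both with a negative r, and not Pecam1 with Ang or Efnb1. Without each array in turn the count was between 2 and 4, against 5.47% to 10.5% of all pairs. The 2 pairs left without replicate 1 were Ang with Efnb1 and Pecam1 with Efnb1, and without replicate 5 Ang with Efnb1 and Angpt2 with Cdh5. The mean r of the 15 pairs, 0.47, was 0.072 without centring, between 0.39 and 0.76 with the other alternatives, and between 0.14 (without replicate 1) and 0.63 without each array in turn. The mean of log2 Angpt2 minus Angpt1 as deposited, 5.26 over 5 arrays with Angpt1 within background on 4 of them, was 5.20 on the 1 array that passed the stricter filter, 3.13 with the pseudocount and 5.64 with quantile normalization (both over 6 arrays, with replicate 5 included), and between 4.91 and 5.60 without each array in turn. The lowess curve was not run for it, since Angpt1 is not among the probes the curve was fitted on. The median difference of the 6 genes on replicate 1, -0.79, was -1.37 with equal totals, -0.265 without centring and -0.58 with the pseudocount, and between -0.84 and -0.75 without each of replicates 2 to 6 in turn. Of 72 alternative mean levels of the 6 genes, 64 moved by less than 1 SD. The 8 that moved more came from the stricter filter or the pseudocount. Without centring and with equal totals the mean levels were identical to the main ones for every gene, so these are no check. Replicate 1 widened the SDs of Ang and Efnb1, 1.31 and 1.00, so an equal shift counted for less in these genes. With the stricter filter, levels were relative to the median of 134 probes, and all 6 genes moved down by the same amount. Angpt2, for example, went from 1.19 to 0.59 and Tek from -1.32 to -1.91. Values near 0 limit Angpt1 most, and the cause of the other shifts was not tested.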
